A study of Mus musculus with 4 samples.

Results

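The genes described here encode class I phosphoinositide 3-kinase (PI3K) and the adaptor protein that recruits it: 4 catalytic subunits (Pik3ca, Pik3cb, Pik3cd and Pik3cg), 5 regulatory subunits (Pik3r1, Pik3r2, Pik3r3, Pik3r5 and Pik3r6) and the adaptor Pik3ap1. They were chosen by name, and all 10 were among the 51826 features of the deposited gene table. The series compared mouse bone marrow cells that carry MLL-AF9, a fusion oncogene of acute myeloid leukaemia, with an intact Elovl6 gene (WT, 2 samples) or with Elovl6 knocked out (KO, 2 samples). Elovl6 is an enzyme that lengthens fatty acids. Cells of both genotypes were lineage-negative and c-kit positive, a fraction rich in stem and progenitor cells, were transduced with MLL-AF9 and were sampled at a time labelled week 2. The labels do not give the age or sex of the animals, the knockout allele, whether animals were pooled, or whether each replicate is its own animal or culture. The p-values therefore speak only to the spread among these 4 samples, which may be technical.

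Class I PI3K adds a phosphate to the membrane lipid PIP2 and so makes PIP3, which draws AKT and other proteins to the membrane and promotes growth, survival and migration. The class IA catalytic subunits p110α, p110β and p110δ (Pik3ca, Pik3cb, Pik3cd) are each bound by a regulatory subunit of the p85 type (p85α from Pik3r1, p85β from Pik3r2, p55γ from Pik3r3), which stabilises them and docks on phosphorylated tyrosines of receptors and adaptors. The class IB subunit p110γ (Pik3cg) is bound by p101 (Pik3r5) or p84 (Pik3r6) and is driven by G protein-coupled receptors. p110δ and p110γ are known as the leukocyte forms, while p110α and p110β occur in most tissues. Pik3ap1, also called BCAP, is an adaptor of B cells and myeloid cells whose phosphorylated tyrosines bind p85.

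Gene counts summed to between 8986502 and 11941588 per library, and uniquely placed intron reads to between 6670711 and 8936201. For the deleted gene itself, Elovl6, the 2 WT libraries held 1290 and 1673 counts and the 2 KO libraries 17 and 34. Kit itself, which the sort selected, was present in all 4 libraries at 111.2 to 139.8 CPM (counts of a gene scaled by the size of its library), with no separation of the groups. Other stem and progenitor markers, some of which did separate, are given below. The libraries differed in myeloid markers. Summed over the marker list, monocyte and macrophage genes reached 1065 and 1169.5 CPM in WT and 1780 and 2962 CPM in KO replicates 1 and 2. Neutrophil genes summed to 9713 and 10371 CPM in WT and to 10005 and 6449 CPM in KO, and eosinophil genes to 409.4 and 95.4 CPM in WT and 54.1 and 19.6 CPM in KO. KO replicate 2 thus had the highest monocyte and the lowest neutrophil sums, and WT replicate 1 had the highest eosinophil sum. Most of the neutrophil sum was Mpo, Elane, Prtn3 and Ctsg, each lower in both KO libraries. Mmp8 and Ltf of that list were higher in both KO libraries, with Mmp8 highest in KO replicate 2 at 174.8 CPM. Ltf was at 26.7 and 57.1 CPM in WT and 201.2 and 57.7 CPM in KO, so KO replicate 2 nearly equalled WT replicate 2. The rest of the list overlapped between groups. All of these other genes were higher in KO replicate 1 than in KO replicate 2, with S100a9 at 798.9 against 279.5 CPM. In bulk samples a change in the number of cells of a type cannot be told apart from a change in RNA per cell.

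Scaled to exon length, so that genes can be compared with each other, Pik3ap1 had the highest level of the 10 genes and Pik3r3 the lowest. Averaged over the 4 libraries, levels were 52.7 CPM per kb of exon for Pik3ap1, 46.3 for Pik3cd, 35.1 for Pik3cg, 29.2 for Pik3r1, 19.3 for Pik3r2, 10.7 for Pik3ca, 7.92 for Pik3cb, 6.81 for Pik3r6, 3.60 for Pik3r5 and 0.281 for Pik3r3. The leukocyte catalytic genes Pik3cd and Pik3cg therefore stood above the broadly expressed Pik3ca and Pik3cb in every library. In level, Pik3ap1 and Pik3cd lay above 92.0% and 90.5% of the 11738 genes tested, and Pik3r3 above 2.65%. Neighbours in this order whose library values overlapped were Pik3ap1 with Pik3cd and Pik3cb with Pik3r6. Pik3r5 and Pik3r6 also overlapped, since Pik3r5 reached 5.15 in KO replicate 2 and Pik3r6 was 4.999 in WT replicate 1.

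**Figure D1:**
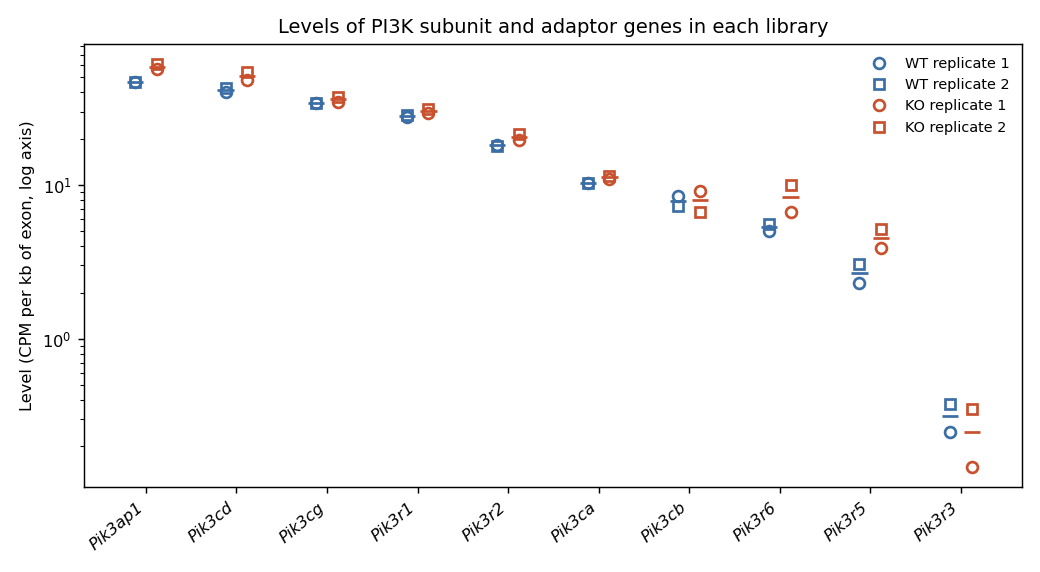
Length-scaled levels (CPM per kb of exon, log axis) of the 10 genes in each library, with WT in blue, KO in red, circles for replicate 1, squares for replicate 2 and bars for group means. Pik3ap1 and Pik3cd are highest, Pik3r3 is lowest at 0.147 to 0.379, and the KO points of Pik3r5 and Pik3r6 lie above their WT points.

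The comparison of KO with WT asks how expression of these genes differs once Elovl6 is lost. Of the 10 genes, 1 rose (Pik3ap1) and none fell, with edgeR's quasi-likelihood test and a threshold of 0.05 on the adjusted p. Over all genes tested 2.80% passed, 1.82% higher and 0.980% lower in KO. Unadjusted p was under 0.05 for 5 of the 10 genes. The fitted log2 fold change was positive for 9 of 10, with a median of 0.16, beside a median of -0.0037 and 49.3% positive values over all genes. Both KO libraries lay above both WT libraries for 8 genes, as they did for 26.8% of all genes tested, and below them for none of the 10, beside 27.0% of all genes.

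**Figure D2:**
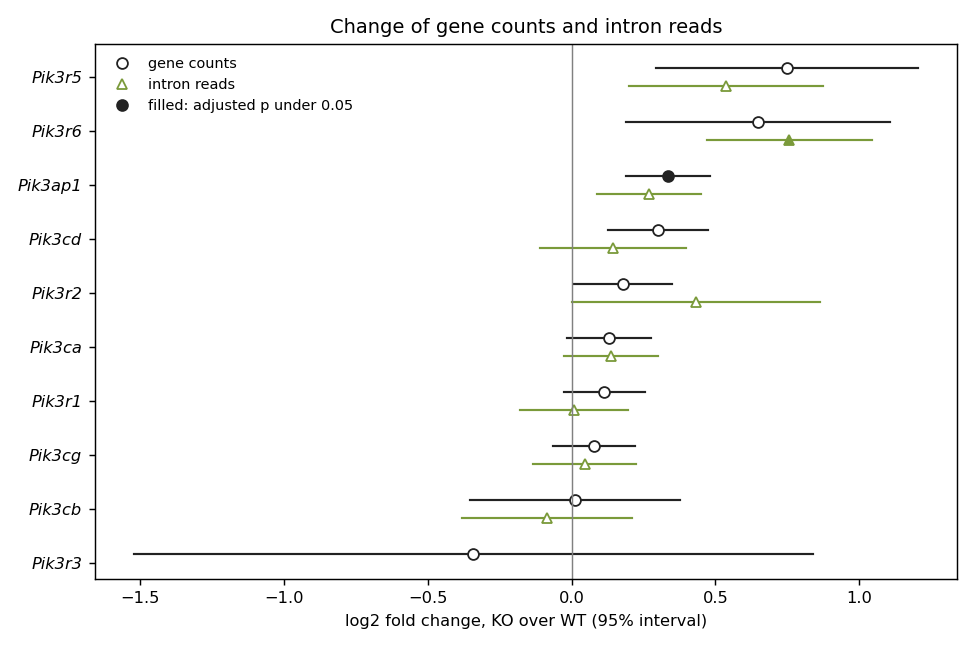
Log2 fold change of KO over WT with 95% intervals for gene counts (circles) and intron reads (triangles), filled where the adjusted p was under 0.05. Pik3ap1 is filled for gene counts and Pik3r6 for intron reads, and Pik3r3 had too few intron reads to test.

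The adaptor gene Pik3ap1 (ENSMUSG00000025017) lies on the minus strand of chromosome 19, from 41274218 to 41385070 in mm10. The 2 WT libraries held 1197 and 1457 of its counts and the 2 KO libraries 1330 and 1553. At the common scale these were 121.8 and 121.9 CPM in WT replicates 1 and 2, and 147.7 and 159.7 CPM in KO replicates 1 and 2. The WT libraries were nearly equal, and both KO libraries lay above them. The mean level rose from 121.8 ± 0.127 to 153.7 ± 8.47 CPM (SD, n = 2 each), a log2 fold change of 0.34 (SE 0.061; 95% interval 0.19 to 0.48; edgeR adjusted p = 0.0441). The authors' deposited table gives it a corrected p of 0.0446. Reads that span a splice junction, an alternative chosen after the data were seen, numbered 451 and 565 in WT and 544 and 601 in KO, with a log2 fold change of 0.39 (edgeR adjusted p = 0.0192; 3.34% of genes passed on these reads). The call on gene counts did not survive leaving out WT replicate 1, leaving out WT replicate 2 or leaving out KO replicate 2, at edgeR adjusted p of 0.362, 0.245 and 0.0882, with log2 fold changes of 0.33, 0.33 and 0.28. It was also lost with limma-voom (adjusted p = 0.0553) and with a filter at a mean of 10 CPM (edgeR adjusted p = 0.0638).

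The class IB regulatory genes had the largest fold changes, but neither passed the test on gene counts. Pik3r5 (ENSMUSG00000020901), which encodes p101, had 125 and 203 counts in WT and 194 and 278 in KO. Scaled, it was at 12.7 and 16.99 CPM in WT and 21.5 and 28.6 CPM in KO. All KO values were above all WT values, with a wide gap between replicates in both groups. Its log2 fold change was 0.75 (SE 0.19; 95% interval 0.29 to 1.204; edgeR adjusted p = 0.0915). The authors' deposited table gives it a fold change of 1.67 with a corrected p of 0.00733, below the 0.05 threshold. Pik3r6 (ENSMUSG00000046207), which encodes p84, had 178 and 243 counts in WT and 217 and 351 in KO. That is 18.1 and 20.3 CPM in WT and 24.1 and 36.1 CPM in KO, again without overlap and with KO replicate 2 highest. Its log2 fold change was 0.65 (SE 0.19; 95% interval 0.19 to 1.11; edgeR adjusted p = 0.124), and its corrected p in the authors' deposited table was 0.0969. Without KO replicate 2, the library with the highest monocyte marker sum, the log2 fold changes were 0.53 for Pik3r5 and 0.32 for Pik3r6 (edgeR adjusted p = 0.242 and 0.412). Without KO replicate 1 they were 0.93 and 0.90 and passed (edgeR adjusted p = 0.00679 and 0.00202). The part of the monocyte markers in these values was not tested.

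Both genes lie on the plus strand of chromosome 11, one after the other. Pik3r5 spans 68432121 to 68497849 and Pik3r6 spans 68503019 to 68552698 in mm10, with 5169 bases between them. GENCODE lists no other gene within either span. Pik3r5 made up 31.4% and 35.3% of their summed length-scaled level in WT and 36.8% and 34.1% in KO, so the groups overlapped in the balance between p101 and p84 RNA.

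None of the class IA catalytic genes passed the test. Pik3cd (ENSMUSG00000039936), encoding p110δ, had 250.8 and 268.7 CPM in WT and 302.2 and 338.3 CPM in KO, without overlap. Its log2 fold change was 0.30 (SE 0.073; 95% interval 0.13 to 0.48) and missed the threshold (edgeR adjusted p = 0.0811). DESeq2 put it past the threshold (adjusted p = 0.0285), as did leaving out KO replicate 1 (log2 fold change 0.38, edgeR adjusted p = 0.00679), while the corrected p in the authors' deposited table was 0.0900. Pik3ca (ENSMUSG00000027665), encoding p110α, had 93.2 CPM in each WT library and 99.5 and 104.6 CPM in KO, with a log2 fold change of 0.13 (95% interval -0.014 to 0.28; edgeR adjusted p = 0.283). Pik3cb (ENSMUSG00000032462), encoding p110β, overlapped between groups, at 60.6 and 52.8 CPM in WT and 66.2 and 48.2 CPM in KO. The fitted log2 fold change of Pik3cb was 0.012 (95% interval -0.35 to 0.38; edgeR adjusted p = 0.973), and it was -0.0056 with upper quartile scaling, so no direction was given to it. The class IB catalytic gene Pik3cg (ENSMUSG00000020573) had 234.1 and 232.0 CPM in WT and 236.8 and 254.9 CPM in KO, with a log2 fold change of 0.078 (95% interval -0.065 to 0.22; edgeR adjusted p = 0.512). The intervals of Pik3ca and Pik3cg exclude a change as large as the fitted values of Pik3r5 and Pik3r6.

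None of the class IA regulatory genes passed either. Pik3r1 (ENSMUSG00000041417), the source of p85α and its shorter forms, had 277.7 and 287.9 CPM in WT and 296.7 and 315.3 CPM in KO (log2 fold change 0.11, 95% interval -0.026 to 0.25, edgeR adjusted p = 0.331). Pik3r2 (ENSMUSG00000031834), encoding p85β, had 75.7 and 75.4 CPM in WT and 82.0 and 89.0 CPM in KO (log2 fold change 0.18, 95% interval 0.0082 to 0.35, edgeR adjusted p = 0.222). KO libraries were above WT libraries for both genes, by margins that did not pass over all genes. Pik3r3 (ENSMUSG00000028698), encoding p55γ, had only 13 and 24 counts in WT and 7 and 18 in KO. With so few counts the 95% interval of its log2 fold change, from -1.52 to 0.84 around -0.34, leaves the sign of a change unsettled (edgeR adjusted p = 0.745). Of the total exon reads of Pik3r3 58.8% were uniquely placed, against 93.8% for Pik3cb and 100% for the other 8 genes.

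The make-up of the catalytic pool was described from length-scaled levels. Pik3cd made up 43.1% and 45.4% of the catalytic sum in WT and 46.8% and 49.3% in KO, and Pik3cg made up 36.8% and 36.0% in WT and 33.6% and 34.1% in KO. Neither gene's groups overlapped. Shares of a sum depend on each other, so a higher share of Pik3cd lowers the others. The level of Pik3cg itself was not lower in KO, with means of 34.1 CPM per kb in WT and 36.0 in KO. The share of Pik3cd was 44.3% ± 1.67 in WT and 48.1% ± 1.76 in KO (SD, n = 2 each), and that of Pik3cg was 36.4% ± 0.631 and 33.8% ± 0.306. Pik3ca made up 11.02% and 10.8% in WT and 10.6% and 10.5% in KO, also without overlap. Pik3cb made up between 6.12% and 9.06% in each library. RNA of the class IB regulatory subunits came to 0.213 and 0.255 of that of Pik3cg in WT and to 0.304 and 0.405 in KO, a mean of 0.234 ± 0.0302 against 0.354 ± 0.0715 (SD, n = 2 each). The difference of 0.120 was 0.0698 without KO replicate 2. For class IA the ratio of regulatory to catalytic RNA went the other way, from 0.782 and 0.777 in WT to 0.719 and 0.733 in KO. The class IA regulatory sum itself was higher in both KO libraries, with means of 46.5 CPM per kb in WT and 51.1 in KO. With 2 samples against 2 an exact two-sided permutation test cannot give a p below 1 of 3, so these ratios were not tested, and RNA ratios do not give the ratios of the proteins.

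**Figure D3:**
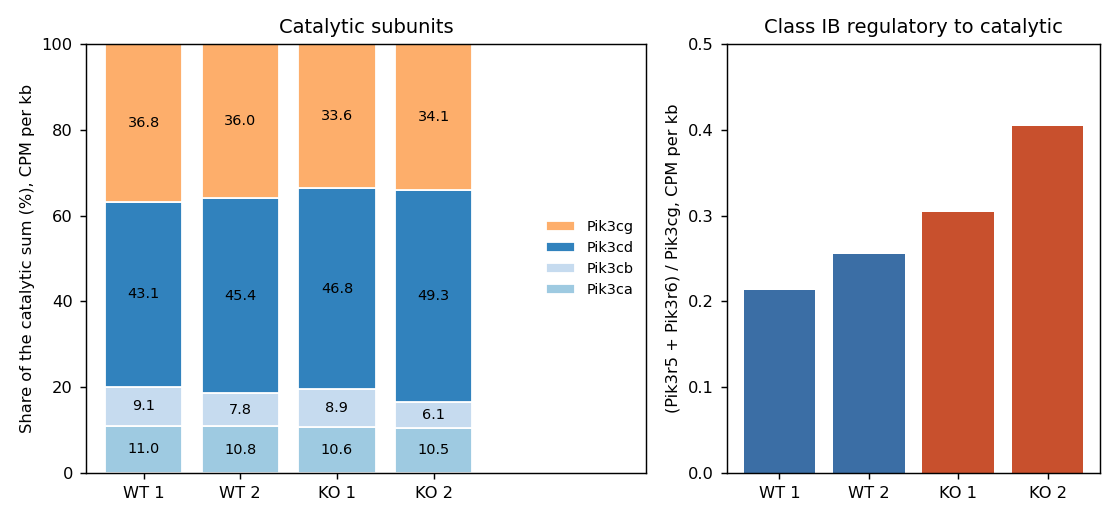
Left, share of each catalytic gene in the summed length-scaled level of the 4 catalytic genes, in percent, for each library. Right, summed level of Pik3r5 and Pik3r6 divided by that of Pik3cg, which is 0.213 and 0.255 in WT (blue) and 0.304 and 0.405 in KO (red).

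Intron reads come largely from unspliced RNA and give a second readout of the same libraries. Pik3r2 had 64 to 98 of them per library, and Pik3r3 had 1 in WT replicate 2 and none elsewhere and could not be tested. The annotated span of Pik3r3 overlaps that of AL670603.1 on the same strand. Introns held 67.0% of the uniquely placed reads of Pik3ap1 and 68.6% of those of Pik3r6, but 29.0% for Pik3cd and 8.68% for Pik3r2, averaged over libraries, beside 43.6% to 44.6% over all genes. Pik3r2 is also the shortest of the genes, spanning 8.54 kb, while Pik3ap1 spans 110.9 kb.

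Pik3r6 rose in intron reads. The gene had 388 and 477 intron reads in WT and 528 and 773 in KO, or 53.0 and 53.4 CPM of intron reads against 78.0 and 101.5. Both KO libraries lay well above the nearly equal WT libraries. The log2 fold change was 0.76 (SE 0.12; 95% interval 0.47 to 1.04) and passed (edgeR adjusted p = 0.0147). Over all 12359 genes tested on intron reads 4.81% passed, 2.59% higher and 2.23% lower in KO. It kept its direction without each library, from 0.55 without KO replicate 2 to 0.93 without KO replicate 1, and missed the threshold without WT replicate 1 (edgeR adjusted p = 0.0572).

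The other 8 genes tested on intron reads did not pass. Pik3r5 had 26.4 and 29.9 intron CPM in WT and 35.6 and 45.9 in KO (log2 fold change 0.54, edgeR adjusted p = 0.0860), and Pik3ap1 had 329.7 and 340.5 in WT and 381.4 and 426.3 in KO (0.27, edgeR adjusted p = 0.103). Neither overlapped between groups. Intron reads of Pik3cd did overlap, at 142.7 and 153.8 in WT and 145.0 and 182.3 in KO (0.14, edgeR adjusted p = 0.527). Pik3r2 had an intron log2 fold change of 0.43 (edgeR adjusted p = 0.252). The gene 6330537M06Rik, on the strand opposite Pik3r2, overlaps it and had 18 to 32 intron reads of its own, and whether counting used the strand is unknown from the sources used here. Pik3ca had 0.14, Pik3cg 0.045, Pik3r1 0.0096 and Pik3cb -0.085. Both KO libraries were above both WT libraries for 5 of the 9 genes, as for 26.3% of all genes tested, and below them for none, beside 25.4%.

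Whether exon and intron reads changed by different amounts was tested in one model over both kinds of read. None of 9 genes passed in edgeR's test, 1 had an unadjusted p under 0.05, and 1.65% of 10333 genes passed over the whole table, 1.18% with the larger value in exons and 0.465% with the smaller. The gene with the unadjusted p under 0.05 was Pik3cd, whose exon change exceeded its intron change by 0.16 on the log2 scale (95% interval 0.025 to 0.30; edgeR adjusted p = 0.290). That value was 0.086 without KO replicate 1 and 0.25 without KO replicate 2, and no gene had an unadjusted p under 0.05 without WT replicate 2, without KO replicate 1 or with no library block. For Pik3r6 the difference was -0.11 (95% interval -0.37 to 0.15), for Pik3r5 0.22 (95% interval -0.094 to 0.52) and for Pik3ap1 0.070 (95% interval -0.063 to 0.20). Each of these 3 intervals includes 0, and those of Pik3r5 and Pik3r6 are wide.

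Promoter sequences from RefSeq (GRCm38.p6, the assembly of mm10) were matched for 9 of the 10 genes, at 15 annotated starts. The 250 bases before the start are printed for Pik3ap1, the gene that passed the test, for Pik3r5, with the largest fold change, and for the first listed start of Pik3cg, whose RNA changed little. Capitals mark CG dinucleotides, the sites of DNA methylation.
Pik3ap1, chr19:41385103-41385352, minus strand: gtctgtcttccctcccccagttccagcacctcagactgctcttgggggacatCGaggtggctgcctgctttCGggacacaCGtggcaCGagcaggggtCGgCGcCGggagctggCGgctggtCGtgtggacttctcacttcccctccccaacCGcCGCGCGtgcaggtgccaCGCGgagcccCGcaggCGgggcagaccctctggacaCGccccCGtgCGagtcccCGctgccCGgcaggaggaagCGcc
Pik3r5, chr11:68431875-68432124, plus strand: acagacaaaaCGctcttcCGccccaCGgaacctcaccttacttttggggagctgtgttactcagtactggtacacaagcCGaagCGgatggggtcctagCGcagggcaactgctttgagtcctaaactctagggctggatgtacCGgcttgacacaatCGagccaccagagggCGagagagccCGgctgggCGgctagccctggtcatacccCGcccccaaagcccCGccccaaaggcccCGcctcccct
Pik3cg, chr12:32208660-32208909, minus strand: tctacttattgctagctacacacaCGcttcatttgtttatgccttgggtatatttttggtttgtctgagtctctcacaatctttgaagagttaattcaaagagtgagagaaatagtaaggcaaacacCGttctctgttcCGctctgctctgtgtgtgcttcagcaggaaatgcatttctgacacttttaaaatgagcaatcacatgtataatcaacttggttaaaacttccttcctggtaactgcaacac

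The 3 windows differ in CG content. Pik3ap1 holds 23 CG dinucleotides at 71.2% G and C, Pik3r5 holds 14 at 61.6%, and Pik3cg holds 3 at 38.8%, where the median over all 32851 windows was 6. At their CG-richest start Pik3r1 and Pik3r2 held 30 and 29, and Pik3cb held 32, more than 95.4% of windows. Each window was searched on both strands for AGGAAGT (ETS family), TGTGGT (RUNX family), TTGCNNAA (C/EBP family) and GTAAACA (FOXO family, the factors that AKT holds inactive), which occur in 7.69%, 14.05%, 9.56% and 3.17% of all windows. Matches were found at the starts of Pik3cg alone, with AGGAAGT on the opposite strand from 25 bases before the printed start. Its other window, which overlaps the printed one, holds AGGAAGT on the opposite strand from 214 and 191 bases before its own start, the first of these being the same site as in the printed window, and GTAAACA from 92 bases before. In the other 13 windows these letters were not present, which says nothing of the factors themselves.

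Genes around class I PI3K were described from lists. Of 116 distinct pathway genes tested 5 rose and 1 fell (5.17%, beside 2.80% of all genes), with a median log2 fold change of 0.077. No gene passed among 14 receptors that feed class IA (median 0.12), 16 adaptors and tyrosine kinases (median 0.093) or 7 class II and III PI3K genes (median -0.034), with 4, 4 and 2 at an unadjusted p under 0.05 in edgeR's test. Among the nearest to the threshold were Met, the hepatocyte growth factor receptor (0.94, edgeR adjusted p = 0.0615), Csf2rb, the shared receptor chain of IL-3 and GM-CSF (0.50, edgeR adjusted p = 0.0876), the docking protein gene Gab2 (0.35, edgeR adjusted p = 0.103) and the class II kinase gene Pik3c2a (0.32, edgeR adjusted p = 0.0722). Others near it were lower in KO, namely Pdgfrb (-0.56, edgeR adjusted p = 0.105) and Pik3c2b (-0.65, edgeR adjusted p = 0.147).

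Called pathway genes fell in the lists of class IB inputs, phosphatases, other effectors and the AKT and mTOR module. Ccr1, a chemokine receptor that signals through G proteins, rose from 6.31 and 7.28 CPM in WT to 20.7 and 33.1 CPM in KO (log2 fold change 1.98, SE 0.25, edgeR adjusted p = 0.0163) and was the only one of 19 G protein inputs to pass. Of 15 phosphoinositide and AKT phosphatases 2 rose: Inpp4a, which removes a phosphate from a product of PIP3, from 47.6 ± 0.332 to 65.4 ± 1.05 CPM (SD, n = 2 each; 0.46, edgeR adjusted p = 0.0401), and Phlpp2, a phosphatase of AKT, from 30.7 ± 1.29 to 44.8 ± 2.29 CPM (SD, n = 2 each; 0.54, edgeR adjusted p = 0.0423). Of 19 genes listed as other effectors of PIP3 or its products, 2 rose: Plekha2, a lipid-binding adaptor gene (0.60, SE 0.067, edgeR adjusted p = 0.0103), and the kinase gene Tec (0.61, SE 0.11, edgeR adjusted p = 0.0443). Prex1, a PIP3-dependent activator of Rac, had 0.51 and narrowly missed (edgeR adjusted p = 0.0519). Swap70 and Rac2 of the same list had -0.25 and -0.21 (edgeR adjusted p = 0.143 and 0.145). Rras2, a listed G protein input at 17 to 100 counts a library, had -1.38 (edgeR adjusted p = 0.105). Its intron reads fell (log2 fold change -1.83, edgeR adjusted p = 0.00846). On intron reads 7 of 109 distinct pathway genes passed, beside 4.81% of all genes. Met, Ccr1, Ccr2 and Tec were higher in KO, and Rras2, Inpp4b and Phlpp1 were lower. The phosphatase genes Inpp4b and Phlpp1 had -1.75 and -0.69 (edgeR adjusted p = 0.00714 and 0.0102). Intron reads of Inpp4a and Phlpp2 had 0.21 and 0.28 and did not pass (edgeR adjusted p = 0.124 and 0.130).

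Among 26 genes of the AKT and mTOR module 1 fell and none rose. Sgk3, a PI3K-dependent kinase related to AKT, had 209.1 and 206.4 CPM in WT and 171.9 and 172.0 CPM in KO, and fell by 0.27 on the log2 scale (SE 0.052, edgeR adjusted p = 0.0489). The FOXO factor gene Foxo3 and the proapoptotic gene Bcl2l11 had 0.29 and 0.43 (edgeR adjusted p = 0.0650 and 0.105). Tsc2 had -0.20 (edgeR adjusted p = 0.129). The list median was 0.053. Of the 6 called pathway genes none passed without WT replicate 1 or without WT replicate 2, where 16 and 26 of the 116 had an unadjusted p under 0.05 in edgeR's test, and 3 passed without KO replicate 2. Sgk3 also missed the threshold with RLE scaling, DESeq2, limma-voom and total exon reads (adjusted p = 0.050, 0.0719, 0.0611 and 0.0543), and Tec with limma-voom (adjusted p = 0.0510). With a mean of at least 10 CPM, Sgk3, Inpp4a, Phlpp2 and Tec all missed it (edgeR adjusted p = 0.0706, 0.0582, 0.0587 and 0.0638). On exon-exon reads Phlpp2 had a log2 fold change of 0.20 (edgeR adjusted p = 0.717), and Inpp4a, Tec and Sgk3 missed as well (edgeR adjusted p = 0.105, 0.191 and 0.0708).

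**Figure D4:**
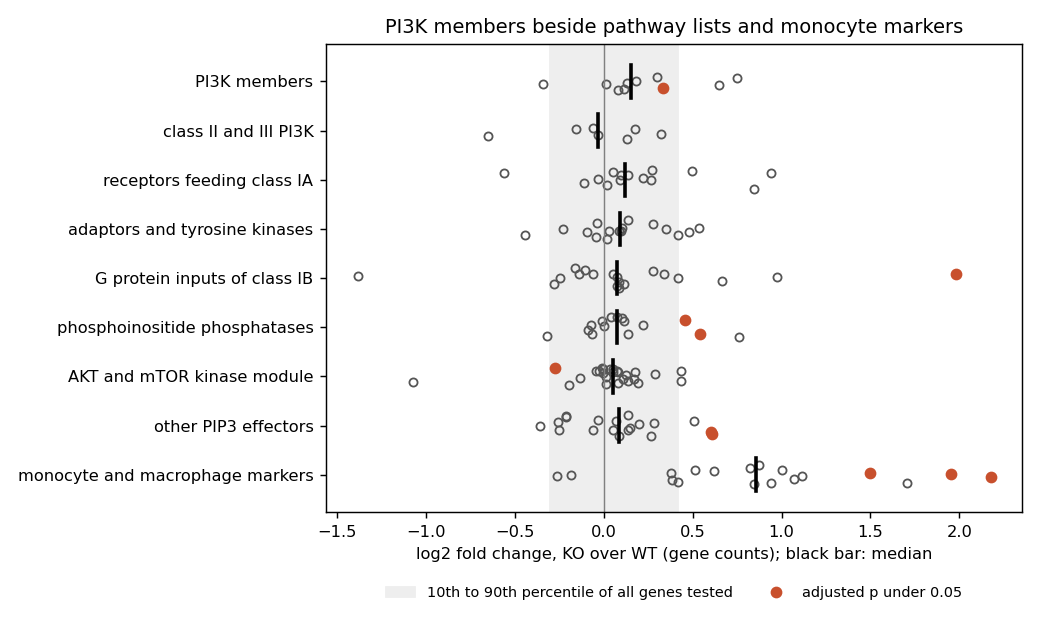
Log2 fold change of KO over WT for the 10 PI3K genes, the pathway lists and the monocyte and macrophage markers, one point per gene, red where the adjusted p was under 0.05, with list medians as black bars and the 10th to 90th percentile of all genes shaded (-0.30 to 0.42). The PI3K median of 0.16 lies within the shading and the monocyte median of 0.86 lies outside it.

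Markers of other cell types that use these subunits also differed between libraries. Of 18 monocyte and macrophage markers tested 3 rose and none fell (median 0.86), namely Lyz2, Cybb and Lgals3, and of 13 neutrophil markers none passed. Among 9 stem and progenitor markers tested, 3 had positive values and the median was -0.20. Only Cd93 passed, and it rose (log2 fold change 0.55, edgeR adjusted p = 0.0124). Myb, Meis1 and Hoxa9 had -0.20, -0.30 and -0.30 (edgeR adjusted p = 0.160, 0.121 and 0.0839). On intron reads Meis1 passed (-0.41, edgeR adjusted p = 0.0354). Myb, Hoxa9 and Cd93 did not pass on intron reads (-0.32, -0.42 and 0.50, edgeR adjusted p = 0.0558, 0.0796 and 0.215). B cells also express Pik3ap1 and Pik3cd at high levels. Among B cell markers Ms4a1 had no counts in any library, Pax5 had 1 count in all, and the list sum was 19.9 and 24.8 CPM in WT and 10.99 and 7.30 CPM in KO. Most of that sum was Cd79b, at 15.4 and 15.5 CPM in WT and 8.66 and 5.35 CPM in KO. For T and NK cells Cd3e, Cd8a and Ncr1 were at 0 in each library, and the sum was 31.9 and 25.7 CPM in WT and 43.8 and 62.4 CPM in KO. Its Thy1, at 15.9 and 11.5 CPM in WT and 26.8 and 45.3 CPM in KO, rose (log2 fold change 1.41, edgeR adjusted p = 0.0478). Among erythroid markers only Car2 had enough counts to test. It fell from 18.1 and 23.9 CPM in WT to 7.55 and 4.22 CPM in KO (log2 fold change -1.85, edgeR adjusted p = 0.0268). Of 7 mast cell and 7 eosinophil markers tested none passed on gene counts, with medians of -0.47 and -2.63. In KO replicate 2 the monocyte sum was at its highest. The CPM of every PI3K gene except Pik3cb and Pik3r3 was also highest there. The share of all genes tested that were highest in that library was not determined, so nothing particular to the PI3K genes can be read from this. Pik3cb was highest in KO replicate 1 and Pik3r3 in WT replicate 2. The part of the cell mixture in the values of the 10 genes was not tested.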

How the data were processed

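Total RNA was sequenced from 2 WT and 2 KO samples, grouped by title, with directional libraries per the labels' protocols. The build mm10 is from the submitters' processing notes, and the sources used here do not give the aligner, the counter or whether strand was used. The authors deposited whole-number counts per gene, with exon, exon-exon and intron reads beside them, per the file headers. The p-values and fold changes quoted from the authors are from the EDGE test deposited in the same table. Starts were converted to count from 1, and strand and overlaps are from GENCODE vM21.

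Low genes were removed by filterByExpr at its minimum count of 10 and minimum total of 15, and the rest were scaled by TMM (edgeR 4.0.16, R 4.3.3) and tested with edgeR's quasi-likelihood test over 11738 genes, adjusted by Benjamini-Hochberg, with no replicate block. Intron reads were scaled by their own totals and TMM. Exon and intron changes were compared on unique exon reads, with library as a block. Intervals of 95% come from the same fits. DESeq2 1.42.0 and limma 3.58.1 (voom) served as alternatives. A count of 3 equals 0.251 to 0.333 CPM. On simulated counts each test made more false calls than its nominal rate and recovered few changes of the size seen for Pik3ap1.

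Named genes are Elovl6, the 10 members, and per pathway list those past the threshold on gene counts or intron reads and up to 4 more by p. Members, lists and motifs were chosen with earlier results of these data known. Not every listed gene is reported here. The 3 printed promoters and the neighbouring genes were chosen after values were seen.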

Additional observations from a re-analysis of the deposited data

How the results depend on the processing

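Pik3r5, Pik3r6, Pik3cd, Pik3ap1, Pik3ca, Pik3r1 and Pik3r2 kept a positive log2 fold change of gene counts in every alternative run. Depth limits Pik3r3. The number of the 10 genes past the threshold was 1, and 1 with RLE or upper quartile scaling and with unique, total or exon-exon reads; it was 2 with DESeq2, 0 with limma-voom (5 at an unadjusted p under 0.05), 0 with a mean of at least 10 CPM (5 unadjusted), 4 with no filter, and 0 to 4 with a library left out (0 without WT replicate 1, 0 without WT replicate 2 and 0 without KO replicate 2, with 3, 4 and 3 unadjusted). With the replicate number as a block it was 4; Pik3r5, Pik3r6 and Pik3cd then passed (edgeR adjusted p = 0.0149, 0.0346 and 0.0222). Equal numbers correlated at 0.107 in their deviations and nothing in the labels pairs them. That correlation cannot decide whether equal numbers share an animal, culture or day, which is unknown.

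Over all genes, 329 passed on gene counts, 1677 with no filter, 95 with a mean of at least 10 CPM, 875 with the replicate block and 14 to 1449 with a library left out. For intron reads 595 became 1565 with no filter, 1430 with the block and 287 to 1299 with a library left out; of the PI3K genes 1 passed on intron reads, 3 with no filter, 3 with the block and 0 (2 unadjusted) to 4 with a library left out. The exon against intron test gave 170, 11 with no library block and 35 to 213 with a library left out. Listed genes past the threshold numbered 12, 68 with no filter, 42 with the block and 0 (32 unadjusted) to 60 with a library left out.

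No value that turned sign was past the threshold. Without KO replicate 1 the intron reads of Pik3r5, Pik3ap1 and Pik3cb also passed (0.70, 0.35 and -0.31; edgeR adjusted p = 0.00903, 0.0175 and 0.0409). Pik3cb gene counts gave -0.0056 with upper quartile scaling, -0.0019 with limma-voom, -0.00027 with the block and -0.23 to 0.23 with a library left out; Pik3cg gave -0.074 on exon-exon reads; Pik3r3 ranged from -1.10 to 0.13. With a library left out, intron values ranged from -0.31 to 0.12 for Pik3cb, -0.033 to 0.30 for Pik3cd, -0.030 to 0.11 for Pik3cg and -0.073 to 0.085 for Pik3r1, and exon minus intron from -0.037 to 0.023 for Pik3ca and -0.011 to 0.075 for Pik3cg. With a library left out the difference in the Pik3cd share was 2.57 to 5.06 percentage points and that in the class IB ratio 0.0698 to 0.171; the latter was 0.0770 with no length scaling. The causes were not tested.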

Other observations

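The neighbourhood of the adjacent genes Pik3r5 and Pik3r6 on chromosome 11 was looked at after their values were seen. Within 300 kb on either side lie 6 other protein-coding genes, and none passed in edgeR's test on gene counts. Stx8, a vesicle fusion gene upstream of the pair, had 28.1 ± 0.878 CPM in WT and 31.9 ± 4.53 CPM in KO (SD, n = 2 each), and Ndel1, a dynein regulator downstream, had 49.7 ± 0.663 and 51.6 ± 7.01 CPM. The nearest downstream gene, Mfsd6l, had only 15 and 10 counts in WT and 14 and 32 in KO, a log2 fold change of 1.07 (SE 0.51, edgeR adjusted p = 0.288). Ntn1 and Myh10 had log2 fold changes of -0.62 each, at 9 to 41 counts a library, and Ccdc42 had no counts.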
